A study of Homo sapiens with 6 samples.

Results

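The genes described here encode 8 inflammatory chemokines that epithelial cells release to call in white blood cells (CXCL1, CXCL2, CXCL3, CXCL5, CXCL8, CCL2, CCL5 and CCL20) and IL6 and IL1A, cytokines of the same response. They were taken by gene symbol from the deposited tables of gene counts and FPKM (fragments per kb of transcript, scaled to the mapped fragments of each library), which gave 10 of 10 listed genes out of 32192 in the count table. All 10 also stood in the FPKM table. The rule used gene symbols and no measured value.

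RNA was sequenced from A549, an established human cell line derived from a lung adenocarcinoma. The APEX1-OE group held 3 libraries of cells transiently transfected with the pIRES-hrGFP-1a vector carrying the APEX1 coding sequence with a FLAG tag, and the Ctrl group held 3 libraries of cells transfected with the control vector. Both groups were therefore exposed to transfection and plasmid DNA, and no untransfected cells were among the 6 libraries. The share of cells that took up the plasmid, the time from transfection to RNA extraction and whether the replicates were separate cultures were not given in the sources used here. APEX1 is a base excision repair endonuclease that is also known as a redox activator of transcription factors, among them NF-kappaB and AP-1.

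Chemokines are small secreted proteins that bind G protein-coupled receptors on migrating cells. The CXC chemokines with an ELR motif (CXCL1, CXCL2, CXCL3, CXCL5 and CXCL8) attract neutrophils through CXCR1 and CXCR2, whereas the CC chemokines CCL2, CCL5 and CCL20 attract monocytes, T cells and dendritic cells. In airway epithelium their genes are classical targets of NF-kappaB and AP-1, and their mRNAs are short-lived because AU-rich elements recruit decay factors. IL6 signals through IL6R and IL6ST to the JAK kinases and STAT3, and IL1A signals through IL1R1 to MYD88, IRAK kinases and NF-kappaB.

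On GRCh38 (GENCODE release 44), the 5 CXC genes lie near each other on chromosome 4. CXCL8 spans 73740519 to 73743716 and CXCL1 spans 73869393 to 73871308, both on the plus strand. CXCL5 spans 73995642 to 73998677, CXCL3 spans 74036589 to 74038807 and CXCL2 spans 74097040 to 74099196, all on the minus strand. CCL2 (chromosome 17, 34255274 to 34257208, plus strand) and CCL5 (chromosome 17, 35871491 to 35880793, minus strand) share another chromosome. CCL20 (227805739 to 227817564, plus strand) and IL1A (112773925 to 112784493, minus strand) are on chromosome 2, and IL6 (22725884 to 22732002, plus strand) is on chromosome 7.

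The promoter sequences below show what these genes share before their start sites, and how alike CXCL1, CXCL2 and CXCL3 are. Promoters were taken from RefSeq (GRCh38.p14), which matched 8 of the 10 genes (not CCL2 and CCL5, and IL1A with 2 starts), and the 250 bases before each start were searched for 4 motifs. The NF-kappaB core GGNNTTTCC, searched on both strands, stood in 7 of the 8 genes, the exception being IL1A. It stood in 5.48% of all 35116 promoters of the same length. The AP-1 motif TGANTCA (both strands) stood in CXCL8 and IL1A and in 6.57% of all promoters. The interferon response motif GAAANNGAA (both strands) stood in CXCL2 and CXCL3 and in 6.88% of all promoters, and TATAAA (gene strand) stood in CXCL8, CCL20 and IL1A and in 6.80% of all promoters. Those matches are descriptions of the letters and not measured binding sites. The RefSeq starts need not be the ends of the GENCODE spans given above. The stretches printed below for IL6 and CCL20 lie within those spans, and those for CXCL8, CXCL3 and CXCL2 partly overlap theirs. The 140 bases directly before the RefSeq start of each of the 7 genes are printed 5′ to 3′ on the gene's strand, with matches to the NF-kappaB core, AP-1 or TATA motif in capitals:

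CXCL1 (chr4:73869253-73869392, plus strand): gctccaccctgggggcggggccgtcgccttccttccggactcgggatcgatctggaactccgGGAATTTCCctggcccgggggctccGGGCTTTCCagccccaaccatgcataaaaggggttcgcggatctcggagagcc

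CXCL2 (chr4:74099196-74099335, minus strand): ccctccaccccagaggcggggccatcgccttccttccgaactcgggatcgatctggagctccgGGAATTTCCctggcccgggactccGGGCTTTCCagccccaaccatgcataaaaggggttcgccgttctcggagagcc

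CXCL3 (chr4:74038690-74038829, minus strand): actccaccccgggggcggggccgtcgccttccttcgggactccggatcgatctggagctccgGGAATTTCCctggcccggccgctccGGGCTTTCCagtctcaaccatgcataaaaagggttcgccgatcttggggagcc

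CXCL5 (chr4:73998678-73998817, minus strand): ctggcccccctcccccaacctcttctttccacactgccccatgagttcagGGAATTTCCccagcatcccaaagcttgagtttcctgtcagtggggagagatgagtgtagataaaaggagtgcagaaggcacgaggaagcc

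CXCL8 (chr4:73740429-73740568, plus strand): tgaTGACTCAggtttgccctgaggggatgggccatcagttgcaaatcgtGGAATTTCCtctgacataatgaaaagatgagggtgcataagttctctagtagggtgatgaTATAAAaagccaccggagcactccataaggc

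CCL20 (chr2:227813702-227813841, plus strand): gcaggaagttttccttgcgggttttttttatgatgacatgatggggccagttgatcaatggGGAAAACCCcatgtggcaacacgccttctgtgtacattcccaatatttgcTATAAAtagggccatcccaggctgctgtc

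IL6 (chr7:22727060-22727199, plus strand): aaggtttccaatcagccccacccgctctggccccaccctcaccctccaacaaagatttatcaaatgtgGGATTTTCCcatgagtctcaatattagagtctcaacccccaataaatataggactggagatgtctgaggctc

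CXCL1, CXCL2 and CXCL3 each carried the same pair of core matches, GGAATTTCC and GGGCTTTCC. CXCL5 and CXCL8 carried the first of these alone. In CCL20 the core was matched on the opposite strand, so its capitals read as the reverse complement.

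Library totals ranged from 28131955 to 41009197 counts. APEX1 itself stood at 1272, 1185 and 1300 CPM (a gene's count relative to the library total, scaled by edgeR's TMM factors) in the APEX1-OE libraries 1, 2 and 3, against 244, 243 and 214 in Ctrl, a log2 fold change of 2.42 (SE 0.171, adjusted p = 0.00809, edgeR). Transcripts from the plasmid and from the chromosomal gene were not separated in this value. APEX1 was the only gene called of 16971 tested by edgeR's quasi-likelihood test at an adjusted p under 0.05 (0.00589%), and 118 genes had an unadjusted p under 0.05. The first principal component of the libraries, computed without the genes listed here, held 72.6% of the variance and did not follow the conditions. It set APEX1-OE 1, Ctrl 1 and Ctrl 2 (side A) apart from APEX1-OE 2, APEX1-OE 3 and Ctrl 3 (side B). The labels name no batch for this split, so each of the 10 genes is also given with the side as a term in the fit. Scores also differed within a side. On side A they were -58.4 for APEX1-OE 1, -32.6 for Ctrl 1 and -31.0 for Ctrl 2. On side B they were 33.1 for APEX1-OE 2, 49.8 for APEX1-OE 3 and 39.1 for Ctrl 3. The side term does not take up these differences. The epithelial keratins KRT8 and KRT18 were abundant, and the summed epithelial markers lay between 12225 and 19054 CPM in APEX1-OE and between 11423 and 16945 in Ctrl, highest in the 3 libraries of side A, while EPCAM held only 15 to 47 counts per library. Leukocyte markers, which would come with cells that also make these cytokines, summed to between 5.60 and 8.31 CPM in APEX1-OE and between 7.57 and 9.60 in Ctrl. Most of that sum was CD14, and the defining markers PTPRC and CD3E held at most 1 count in any library. Fibroblast markers summed to 6.87 to 9.39 CPM in APEX1-OE and 7.64 to 8.74 CPM in Ctrl. Most of that sum was COL1A1, with 121 to 188 counts per library, while COL1A2 held 1 count or fewer. Endothelial markers summed to 0.259 to 0.323 CPM in APEX1-OE and 0.306 to 0.395 CPM in Ctrl. The part of these markers in the results was not tested.

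A549 cells of both groups held all 10 mRNAs, over a wide span of levels per transcript length. CXCL1 had the highest mean, 240.2 FPKM over the 6 libraries, which ranked 199 among all genes in the FPKM table, and CXCL5 followed with 162 FPKM. CXCL8 had 88.5, CCL5 43.4, CXCL2 24.6, CCL2 16.6, CXCL3 12.4 and IL6 10.8 FPKM. CCL20 had 1.35 FPKM and IL1A 0.0867 FPKM, the lowest of the 10. Of the neighbours in this order, the ranges over the 6 libraries overlapped between CXCL1 and CXCL5, CXCL5 and CXCL8, CXCL8 and CCL5, CCL2 and CXCL3, and CXCL3 and IL6. They did not overlap between CCL5 and CXCL2, CXCL2 and CCL2, IL6 and CCL20, or CCL20 and IL1A. Compared within each library, CXCL1 was always above CXCL5, CXCL5 above CXCL8 and CCL2 above CXCL3. CXCL3 was below IL6 in APEX1-OE 1 and APEX1-OE 2 and above it in the other libraries. By mean FPKM, neutrophil chemokines thus held the 3 highest places, and the cytokine IL1A was barely detected. In APEX1-OE 1 alone, CCL5 (65.05 FPKM) was above CXCL8 (53.61 FPKM).

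**Figure D1:**
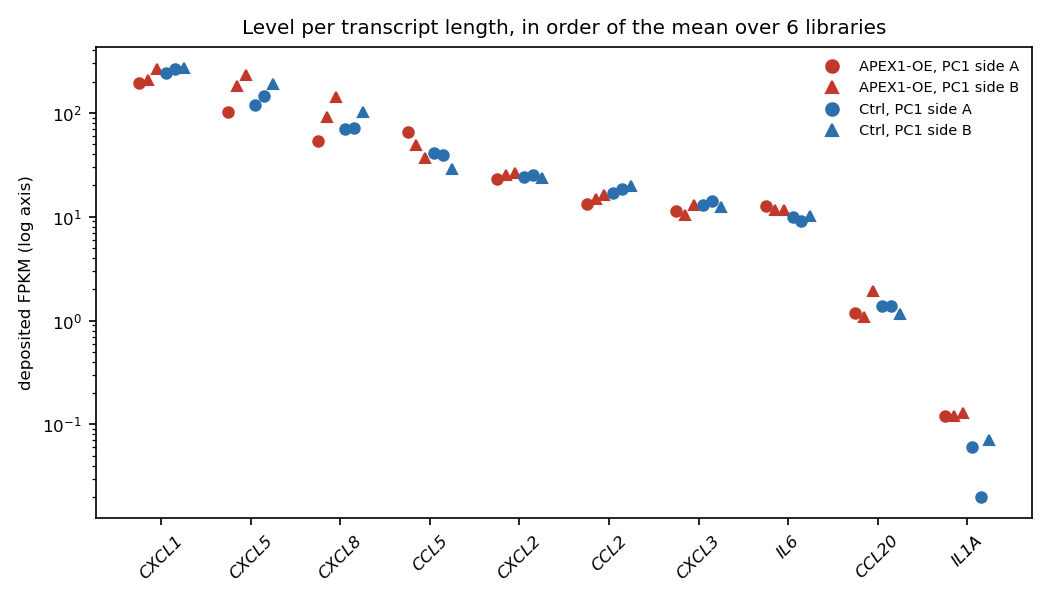
Deposited FPKM (log axis) of each gene in each of the 6 libraries, genes in order of their mean; red is APEX1-OE, blue is Ctrl, and circles and triangles are sides A and B of the first principal component. CXCL1 lies between 193 and 268 FPKM in all libraries, and IL1A between 0.02 and 0.13.

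None of the 10 genes passed the test for a difference between APEX1-OE and Ctrl, against 0.00589% of all genes tested. By TMM-scaled values, in CXCL1 and CCL2 all 3 APEX1-OE libraries lay below all 3 Ctrl libraries, in IL6 and IL1A they lay above them, and in the other 6 genes the groups overlapped. Of all genes tested, 2.01% lay below and 1.38% above in this way. The adjusted p from edgeR was 1.00 for each of the 10. IL1A alone had an unadjusted p under 0.05 (edgeR), beside 118 of all 16971 genes tested. That is fewer than the 5% that chance alone would give. A larger p in this fit, here or in the pathway lists below, therefore does not show that a gene was unchanged. The median log2 fold change of the 10 genes was 0.11, beside 0.03 for all 16971 genes, with 7 of 10 values above 0 (9759 of 16971 over all genes), of which IL1A passed the filter on low counts only through the APEX1-OE libraries. These tests compare the spread between libraries that may be technical replicates. In bulk RNA, fewer cells making an mRNA and less of it per cell cannot be told apart.

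**Figure D2:**
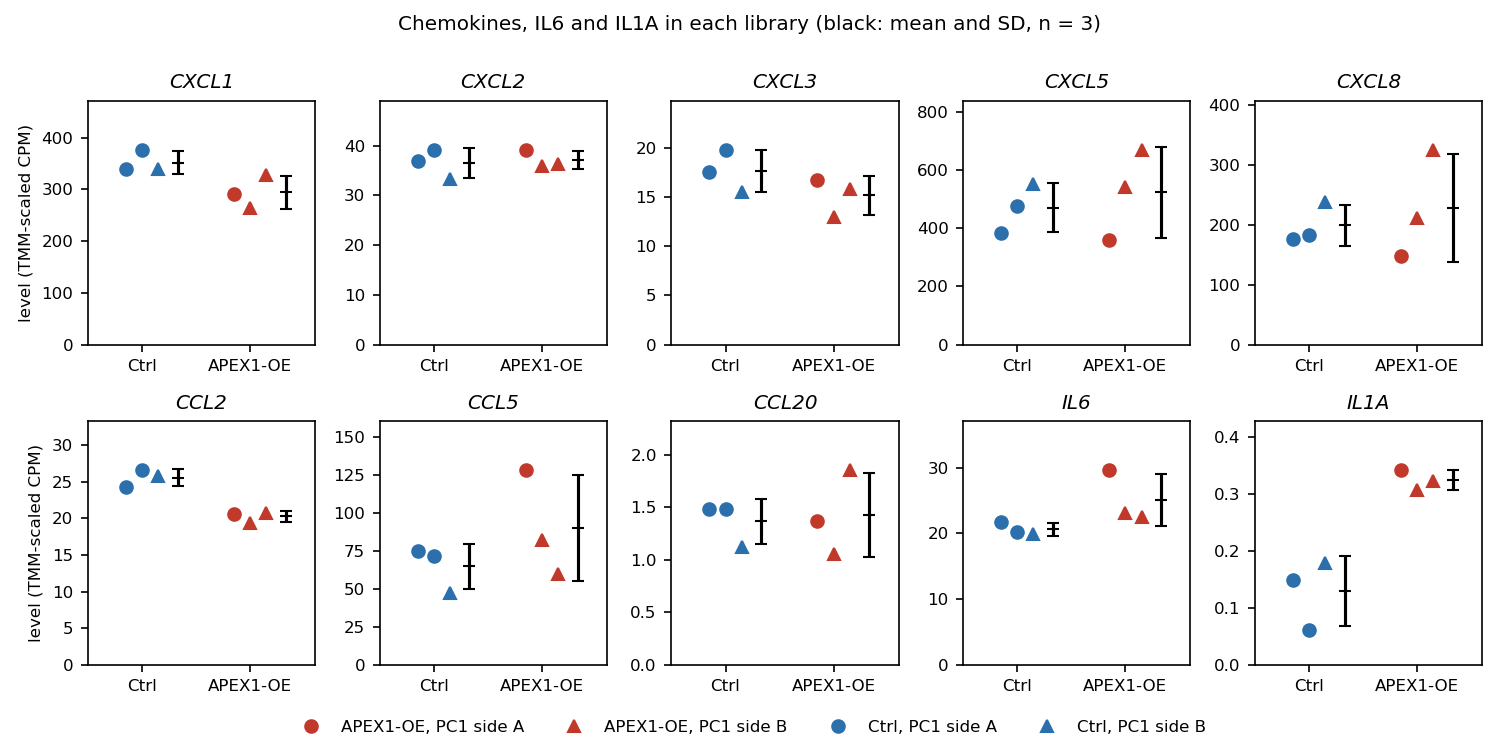
TMM-scaled CPM of the 10 genes in each library (blue Ctrl, red APEX1-OE; circles side A, triangles side B), with the group mean and SD (n = 3) in black. CCL2 and CXCL1 lie lower, and IL6 and IL1A higher, in every APEX1-OE library than in any Ctrl library, while the other 6 genes overlap; CXCL1 overlaps too by total counts and in FPKM.

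CXCL1, also known as GRO-alpha, was at 292, 264 and 328 CPM in libraries 1, 2 and 3 of APEX1-OE, and at 339, 377 and 339 CPM in those of Ctrl. Every APEX1-OE library was below every Ctrl library, which 2.01% of all genes tested also showed (two-sided exact permutation test, p = 0.1, the smallest that 3 libraries against 3 allow). This order did not hold when the libraries were scaled by their total counts or in the deposited FPKM, where the groups overlapped. The means were 295 ± 31.7 and 352 ± 21.7 CPM (SD, n = 3), a log2 fold change of -0.26 (SE 0.173, adjusted p = 1.00, edgeR). Its 95% interval ran from 0.636-fold to 1.10-fold.

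CXCL2 (GRO-beta) and CXCL3 (GRO-gamma) are close relatives of CXCL1. CXCL2 had the smallest range of the 10 genes on the log2 scale, with 39.1, 36.0 and 36.3 CPM in APEX1-OE against 37.0, 39.2 and 33.3 in Ctrl. Its groups overlapped, and its log2 fold change was 0.02 (SE 0.189, 95% interval 0.753-fold to 1.37-fold). CXCL3 had 16.7, 12.98 and 15.8 CPM in APEX1-OE against 17.6, 19.8 and 15.5 in Ctrl, which overlapped as well, although by total counts all APEX1-OE libraries were below all Ctrl libraries. Its log2 fold change was -0.22 (SE 0.225, 95% interval 0.601-fold to 1.23-fold).

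Reads of these 3 genes can be hard to assign. The canonical transcripts of CXCL1 and CXCL2 were 90.9% identical over 1088 aligned bases, those of CXCL2 and CXCL3 82.5% over 1015, and those of CXCL1 and CXCL3 79.8% over 1036. Of all stretches of 50 bases, 5.33% in CXCL1, 10.1% in CXCL2 and 5.26% in CXCL3 also occurred in another gene, and uniquely mapped reads were counted, so the split of the reads among them is uncertain. How many reads, which were longer than these stretches, could not be assigned was not tested. With the counts of the 3 genes summed, the log2 fold change was -0.23 (SE 0.170, adjusted p = 1.00, edgeR), and CXCL1 made up 83.9% to 87.4% of the sum.

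CXCL5, also known as ENA-78, had 358, 542 and 670 CPM in APEX1-OE, whereas Ctrl had 382, 477 and 553 CPM. The lowest and the highest of the 6 values were both APEX1-OE libraries. The means were 523 ± 157 and 471 ± 85.3 CPM (SD, n = 3), with a log2 fold change of 0.15 (SE 0.263, 95% interval 0.729-fold to 1.70-fold). CXCL8, which encodes interleukin 8, had 148, 212 and 325 CPM in APEX1-OE, whereas Ctrl had 176, 184 and 238 CPM. Again both extremes were APEX1-OE libraries. The means were 228 ± 89.8 and 199 ± 33.8 CPM (SD, n = 3), with a log2 fold change of 0.20 (SE 0.299, 95% interval 0.712-fold to 1.85-fold).

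The order of the libraries for CXCL5 and CXCL8 was that of the sides and not that of the conditions. All 3 libraries of side B were above all 3 of side A for both genes, by 0.54 in mean log2 CPM for CXCL5 and by 0.59 for CXCL8. These distances were ordinary for this split, at the percentiles 54.6 and 60.6 of the absolute distances of all genes tested. CXCL2 and CXCL3 were also parted by side, in the other direction, with all 3 libraries of side A above all 3 of side B. Their differences in mean log2 CPM, side B minus side A, were -0.13 and -0.29, at the percentiles 12.3 and 28.3. The share of all genes parted by side in this way was not counted. Within side A the APEX1-OE library lay below the mean of the Ctrl libraries by 0.25 for CXCL5 and 0.28 for CXCL8 on the log2 scale (differences of -0.25 and -0.28), and within side B the APEX1-OE libraries lay above the Ctrl library by 0.13 and 0.14. With the side as a term the log2 fold changes turned to -0.06 (SE 0.121) and -0.05 (SE 0.147). Without APEX1-OE replicate 3 they were -0.06 and -0.15, and without APEX1-OE replicate 1 they were 0.35 and 0.42.

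CCL2, the monocyte attractant MCP-1, had the tightest groups of the 10 genes by SD relative to the mean in TMM-scaled CPM, but not in FPKM. It stood at 20.7, 19.4 and 20.7 CPM in APEX1-OE, whereas Ctrl had 24.3, 26.6 and 25.8 CPM. Every APEX1-OE library was below every Ctrl library, by TMM scaling, by edgeR's median-of-ratios factors, by total counts and in FPKM (two-sided exact permutation test, p = 0.1). By TMM scaling, 2.01% of all genes tested showed this order. The means were 20.2 ± 0.773 and 25.5 ± 1.19 CPM (SD, n = 3), with a log2 fold change of -0.33 (SE 0.196, adjusted p = 1.00, edgeR, 95% interval 0.580-fold to 1.08-fold). Its difference was near the same on each side, -0.30 within side A and -0.36 within side B on the log2 scale, where 1 library stood alone in 1 of the groups. The cause of the difference was not tested.

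CCL5, known as RANTES and as an attractant of T cells and eosinophils, had 128, 82.4 and 59.9 CPM in APEX1-OE, whereas Ctrl had 74.9, 71.9 and 47.5 CPM. The groups overlapped, with the highest value in APEX1-OE 1. The means were 90.2 ± 34.9 and 64.8 ± 15.03 CPM (SD, n = 3), with a log2 fold change of 0.48 (SE 0.318, adjusted p = 1.00, edgeR, 95% interval 0.836-fold to 2.32-fold). Without APEX1-OE 1 the log2 fold change was 0.12, and without APEX1-OE 3 it was 0.70. Within each side APEX1-OE was above every Ctrl library of that side, by 0.81 within side A and 0.56 within side B in mean log2 CPM. With the side as a term the log2 fold change was 0.70 (SE 0.118, adjusted p = 0.0669, edgeR), the smallest adjusted p of the 10 genes in any fit. In GENCODE the canonical CCL5 transcript shares 17.0% of its stretches of 50 bases with other genes, and how many reads this touched was not tested.

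CCL20, which attracts dendritic cells and T cells through CCR6, had low counts. It held 36, 45 and 69 counts in APEX1-OE and 40, 49 and 44 counts in Ctrl. Scaled, these were 1.37, 1.06 and 1.86 CPM and 1.49, 1.49 and 1.12 CPM, with overlapping groups. The log2 fold change was 0.07 (SE 0.292), with a 95% interval of 0.657-fold to 1.67-fold.

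IL6, the cytokine that drives the acute phase response, had 29.7, 23.1 and 22.5 CPM in APEX1-OE, whereas Ctrl had 21.8, 20.2 and 19.9 CPM. Every APEX1-OE library was above every Ctrl library under each of the 4 scalings, which 1.38% of all genes tested showed by TMM scaling (two-sided exact permutation test, p = 0.1). The lowest APEX1-OE value, 22.5, and the highest Ctrl value, 21.8, were close. The means were 25.1 ± 3.97 and 20.6 ± 0.994 CPM (SD, n = 3), with a log2 fold change of 0.28 (SE 0.215, adjusted p = 1.00, edgeR, 95% interval 0.864-fold to 1.71-fold). Without APEX1-OE 1 the log2 fold change was 0.13. The difference was 0.50 within side A and 0.19 within side B on the log2 scale.

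IL1A, an alarmin made by stressed epithelium, held 9, 13 and 12 counts in APEX1-OE and 4, 2 and 7 counts in Ctrl. All 3 APEX1-OE libraries were above all 3 Ctrl libraries in each of the 4 scalings (two-sided exact permutation test, p = 0.1), beside 1.38% of all genes tested by TMM scaling. The log2 fold change was 1.28 (SE 0.453, p = 0.0202 unadjusted, adjusted p = 1.00, edgeR), and the summed counts of 34 and 13 gave a depth-scaled ratio of 2.45, with an exact interval of 1.26 to 5.05 for counting error only. IL1A exceeded the filter's 0.287 CPM in 3 APEX1-OE libraries and in 0 Ctrl libraries. It was thus tested because of the group in which it was higher, and a gene that enters in this way had to differ. The other 9 genes exceeded that level in all 6 libraries. DESeq2 gave IL1A an unadjusted p of 0.0589, and without Ctrl 2 edgeR gave 0.0780 at a log2 fold change of 0.94.

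**Figure D3:**
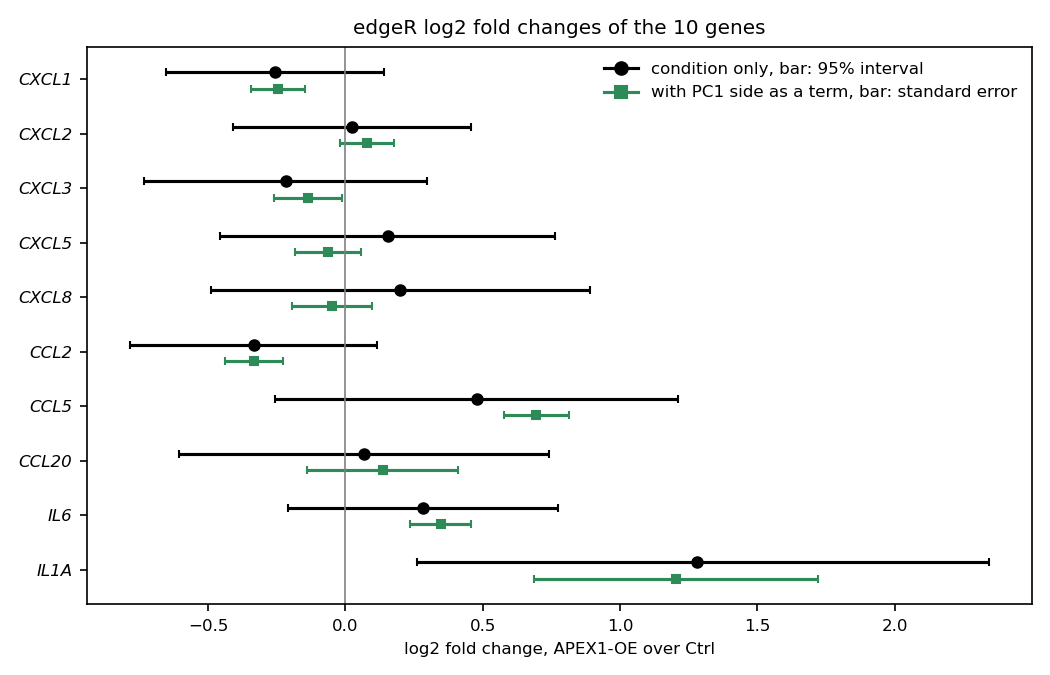
Log2 fold change of APEX1-OE over Ctrl for the 10 genes from edgeR. Black points with 95% intervals come from the fit with the condition alone, in which only the interval of IL1A lies above 0; green squares with standard errors come from the fit that adds the side, in which CXCL5 and CXCL8 change sign and CCL5 moves from 0.48 to 0.70.

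When the fit included the side of the first component, 5 of the 10 genes had an unadjusted p under 0.05, beside 11.6% of all genes tested, and none had an adjusted p under 0.05. CXCL1 was at a log2 fold change of -0.25 (SE 0.0995, adjusted p = 0.382, edgeR) and CCL2 at -0.33 (SE 0.106, adjusted p = 0.356, edgeR). CCL5 was at 0.70, IL6 at 0.35 (SE 0.110, adjusted p = 0.356, edgeR) and IL1A at 1.20 (SE 0.517, adjusted p = 0.400, edgeR). Of the 5, 2 were below 0 and 3 above, and 1 of the latter was IL1A, which had to differ by the way it passed the filter. Over all genes tested, 1461 of the 1973 with such a p were above 0. CXCL2, CXCL3 and CCL20 were at 0.08, -0.14 and 0.14, with unadjusted p of 0.441, 0.286 and 0.629 (edgeR). The sides were read from these same libraries and their origin is not known, so they cannot be told apart from another property of the 2 sets. Differences in score within a side, where APEX1-OE 1 lay farthest out on side A, remain in this fit.

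The genes did not vary as 1 group across the 6 libraries. Likeness was measured as the root mean square difference between the log2 CPM of a pair of genes after each was centred on its own mean, over 6 libraries that share their conditions and sides. The closest pairs were CXCL1 with CCL2 at 0.0800, CXCL1 with CXCL3 at 0.103 and CXCL5 with CXCL8 at 0.121. CXCL1 and CCL2 are on different chromosomes, and the other 2 pairs lie on chromosome 4. The most distant pairs were CCL2, CXCL3 and CXCL1 with IL1A, at 0.781, 0.767 and 0.763, followed by CXCL8 with CCL5 at 0.747. CXCL8 was highest in APEX1-OE 3, where CCL5 was second lowest, and lowest in APEX1-OE 1, where CCL5 was highest. IL1A had the widest range, 1.75 in log2 CPM with a prior count of 2, and the 5 genes with the most similar pattern were KCNG3 (0.235), OSMR-AS1 (0.254), CTD-2303H24.2 (0.258), CH17-264L24.1 (0.260) and RP1-122P22.2 (0.262). IL1A held 2 to 13 counts per library and passed the filter only through APEX1-OE, so counting error enters its distances and these 5 names. The measure was not scaled to a gene's range, so genes that varied little lie close to each other.

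**Figure D4:**
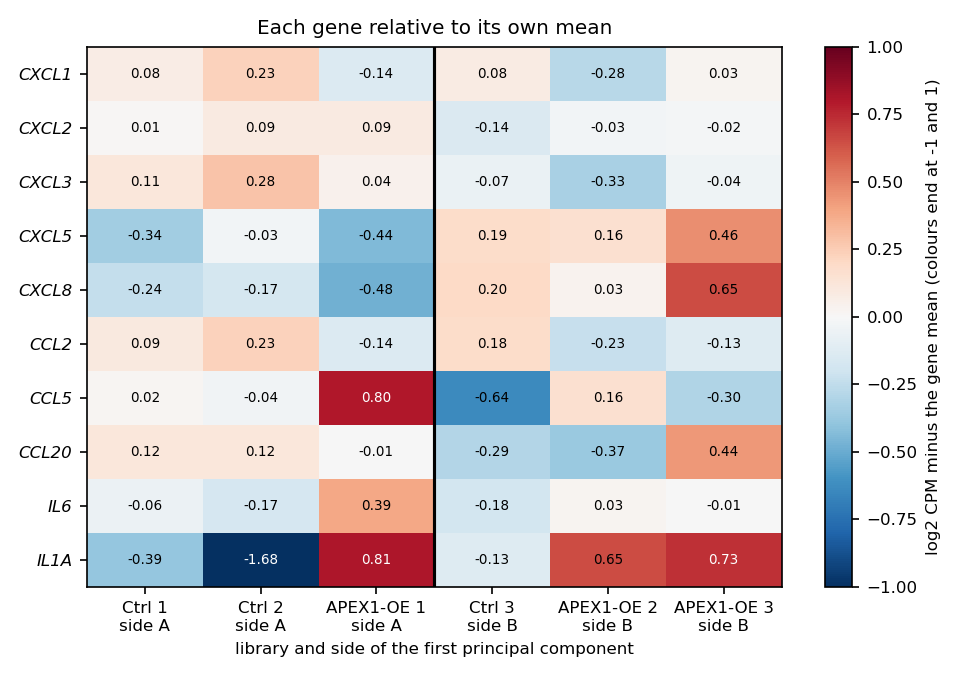
Log2 CPM of each gene minus its mean over the 6 libraries (no prior count), with libraries ordered by side of the first principal component and then by condition; red is above and blue below the gene's mean, and colours end at -1 and 1. CXCL5 and CXCL8 are red in the 3 libraries of side B, where CXCL2 and CXCL3 are blue. CXCL1 and CCL2 share their signs in 5 of 6 libraries, and IL1A has the darkest cell, -1.68 in Ctrl 2.

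Of the receptors that carry the signal of these chemokines, CXCR2, CCR2 and CCR1 were nearly silent in the same cells. CXCR2, the receptor of the neutrophil chemokines, held 0 to 2 counts per library, CCR2, the receptor of CCL2, held 0 to 2, and CCR1, a receptor of CCL5, held 0 to 8. CXCR1 and CCR6 were not analysed here. Of 20 listed receptors and antagonists, 8 passed the filter, and none was called or had an unadjusted p under 0.05 (edgeR). Their median log2 fold change was -0.01. IL6ST, the signal-transducing subunit for IL6 with the highest CPM and the highest log2 fold change of the list, was at 0.44 (SE 0.445), with 76.7 ± 35.2 CPM in APEX1-OE and 56.4 ± 26.2 in Ctrl (SD, n = 3). With the side as a term its log2 fold change was -0.01. CXCR4, the receptor of CXCL12, had the lowest, -0.30 (SE 0.382). IL6R was at 17.4 ± 4.45 and 16.9 ± 2.45 CPM, and IL1R1, the receptor that binds IL1A, at 21.5 ± 9.49 and 21.0 ± 7.98 (SD, n = 3), so cells of both groups held mRNA of receptors for IL6 and IL1A.

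Of 28 other cytokines and chemokines, 18 passed the filter, with none called, none at an unadjusted p under 0.05 (edgeR) and a median log2 fold change of 0.06. CSF1, the macrophage growth factor and the most abundant by CPM, was at -0.14 (SE 0.180). IL33, another alarmin of the IL-1 family, was the highest at 0.86 (SE 0.456), but it was at 0.26 without APEX1-OE 3, which held 173 counts, and at 0.50 with the side as a term. IL1B, the close relative of IL1A, was the lowest at -0.44 (SE 0.388), with 7 to 24 counts per library. TNF, the usual upstream inducer of these chemokines, held 1 to 6 counts per library and did not pass the filter.

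All 21 listed subunits, inhibitors and response genes of NF-kappaB passed the filter. None was called or had an unadjusted p under 0.05 (edgeR), and their median log2 fold change was 0.10. Values above 0 were held by 18 of the 21, and by 9759 of all 16971 genes tested. BIRC3, an inhibitor of apoptosis, was the highest at 0.63 (SE 0.440), with 0.22 when the side was a term, 0.40 without Ctrl 1 and 1.12 without Ctrl 3. ICAM1, the adhesion molecule for leukocytes, was the lowest at -0.30 (SE 0.230), and SOD2, the mitochondrial superoxide dismutase with the highest CPM, was at 0.04 (SE 0.354). With the side as a term, 7 of the 21 had an unadjusted p under 0.05, beside 11.6% of all genes tested, and none an adjusted p under 0.05 (edgeR). In the same fit this held for 4 of the 18 other cytokines and 1 of the 8 receptors. It also held for 3 of the 15 transducers of IL-1 and IL-6 and 4 of the 12 genes of the AU-rich mRNA list, both described next. None of these was called. Of the 7 NF-kappaB genes, RELA, RELB, NFKB2, NFKBIB, BIRC3 and TRAF1 were above 0, and SOD2 was below 0, at -0.29. Over all genes tested, 1461 of the 1973 with such a p in this fit were above 0.

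All 15 signal transducers of IL-1 and IL-6 passed the filter, with none called, none at an unadjusted p under 0.05 (edgeR) and a median of 0.08. IRAK1, a kinase downstream of MYD88 and the most abundant, was at 0.08 (SE 0.305). JAK2 was the highest at 0.58 (SE 0.474), but it was at 0.16 with the side as a term, at 0.29 without APEX1-OE 2 and at 1.11 without Ctrl 3. IRAK4 was the lowest at -0.09 (SE 0.279). STAT3, the factor that IL6 activates, was at 300.2 ± 13.5 CPM in APEX1-OE against 301 ± 7.03 in Ctrl (SD, n = 3).

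The last list held 12 proteins, all of which passed the filter. They were binders and deadenylases of AU-rich mRNAs, together with the nuclease ZC3H12A. None was called or had an unadjusted p under 0.05 (edgeR), and their median log2 fold change was 0.15. ZFP36L1, a relative of tristetraprolin that promotes mRNA decay, was the highest at 0.40 (SE 0.187, adjusted p = 1.00, edgeR), with 225 ± 28.0 CPM in APEX1-OE and 171 ± 17.7 in Ctrl (SD, n = 3). For ZFP36L1 and its relative ZFP36L2 (0.35, SE 0.193), every APEX1-OE library was above every Ctrl library by TMM-scaled CPM, beside 1.38% of all genes tested, but the groups of both overlapped in FPKM. ZC3H12A, the nuclease regnase-1 that degrades IL6 mRNA, was the lowest at -0.29 (SE 0.223).

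**Figure D5:**
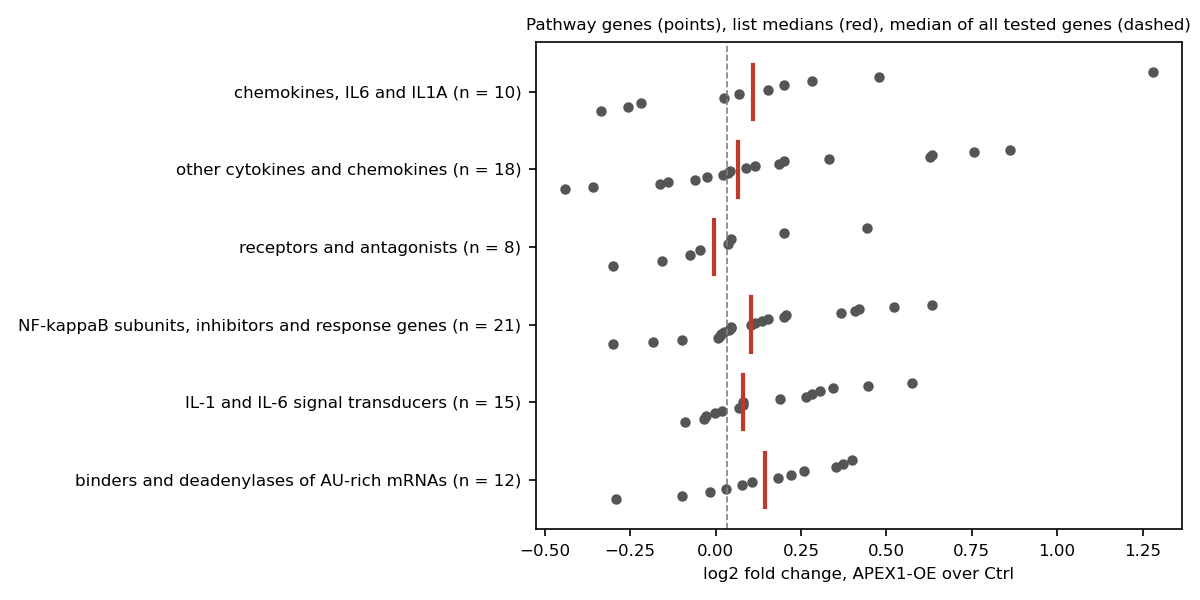
Log2 fold change of APEX1-OE over Ctrl (edgeR) of every tested gene in the 10 genes described and the 5 pathway lists; red bars are list medians and the dashed line is the median of all 16971 tested genes, 0.03. The list medians lie between -0.01 and 0.15, and IL1A at 1.28 is the point farthest from 0.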

How the data were processed

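RNA-Seq libraries of A549 cells, 3 APEX1-OE and 3 Ctrl, were grouped by their GEO labels. The authors trimmed the reads, aligned them to GRCh38 with tophat2 and kept uniquely mapped reads. From these the authors deposited raw counts per gene and, in a second table, FPKM. The counting tool, annotation and use of strand were not given in the sources used here.

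Counts were filtered with filterByExpr (minimum count 10, minimum total 15), scaled by TMM and tested with edgeR's quasi-likelihood F-test (robust fit, condition as the only term, Benjamini-Hochberg adjustment over 16971 genes, threshold 0.05). R 4.3.3, edgeR 4.0.16, limma 3.58.1, DESeq2 1.42.0, Python 3.11.15 and Biopython 1.88 were used. The test was checked on simulated counts. The FPKM table lacked 241 genes, none among the 10. As an alternative, limma was run on log2(FPKM + 1) and log2(FPKM + 0.1). Exact permutation tests used log2(CPM + 0.1).

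The 10 genes, the 5 pathway lists (96 genes) and the tests were chosen with earlier results of these data known, as was the split by the first principal component. Named were the 10 genes, and from each list any called gene, that with the highest mean CPM, and those with the highest and lowest log2 fold change; other genes named were chosen after their values were seen, or for their role. Gene models came from GENCODE 44, matched by gene identifier without version, and promoters from RefSeq. Alternatives covered DESeq2, other scalings, no filter, FPKM, each library left out, the replicate number as a block and the side of the first principal component. The summing of CXCL1, CXCL2 and CXCL3 and the count of groups that do not overlap under other scalings were added after seeing the data.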

Additional observations from a re-analysis of the deposited data

How the results depend on the processing

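None of the 10 genes was called in any of the 13 alternatives (DESeq2, median-of-ratios factors, no filter, 6 libraries left out in turn, the replicate block, the side of the first principal component as a term, and limma with 2 pseudocounts), and the smallest adjusted p among them was 0.0669, for CCL5 with the side term. No gene of the 10 or of the pathway lists was called in these alternatives. The count of the 10 genes whose groups do not overlap was 4, against 3 in FPKM and 4 to 5 with 1 library left out. Over all genes tested, 1.38% lay above and 2.01% below in the main fit, and 2.96% did not overlap in FPKM. With 1 library left out that share rose to between 6.06% and 24.3%, so the counts with fewer libraries are not a like comparison. IL1A, among the 4, passed the filter only through the APEX1-OE libraries. Of the log2 fold changes, 282 of 300 for the 23 named genes kept direction and call. The other 18 changed sign, and the causes were not tested. With the side term they were CXCL5 (-0.064), CXCL8 (-0.049), IL6ST (-0.0057) and SOD2 (-0.29). With 1 library left out, the lowest and highest log2 fold changes were -0.038 and 0.074 for CXCL2, -0.065 and 0.35 for CXCL5, -0.15 and 0.42 for CXCL8, -0.18 and 0.25 for CCL20, -0.16 and 0.39 for SOD2, -0.27 and 0.29 for IRAK1 and -0.23 and 0.10 for IRAK4. The replicate numbers did not pair the libraries: deviations of libraries with the same number correlated at 0.61, -0.52 and 0.70, and APEX1-OE 1 correlated best with Ctrl 2 (0.64). The replicate block gave 2 called genes in all, 0 of the 10 genes, and 2 of them (CCL5 and IL1A) at an unadjusted p under 0.05. Without the filter 10 genes were called in all, against 1 with it. IL1A had at most 13 counts in a library, and 3 libraries a group limit every interval.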
